A study of Mus musculus with 9 samples.

Results

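Potassium channel subunit genes other than the KCNQ (M-current) family were followed in messenger RNA of the mouse nucleus accumbens after repeated cocaine. The genes were those with a symbol of the form Kcn, further letters and a number, without Kcnq genes and without Kcnj13, at a mean of at least 1 RPKM, a read count scaled by gene model length and by the lane total, over all lanes. Of 84 genes with such a symbol in the table, 62 met this level and 22 did not, among 14051 genes at that level and 21423 in all. Just inside the limit lay Kcnb2 at 1.04, Kcnk4 at 1.07 and Kcnu1 at 1.13 RPKM, and just outside it Kcnk6 at 0.991, Kcns3 at 0.929 and Kcnj14 at 0.871 RPKM.

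The animals of all groups were adult male C57BL/6 mice of 2 to 5 months that received 7 daily intraperitoneal injections. The saline group received 10 ml/kg of saline and was killed 24 h after the last injection. The cocaine group received 10 or 20 mg/kg of cocaine and was killed at the same interval, and the withdrawal group spent 8 days without the drug after its cocaine injections. The labels do not tie a cocaine dose to a library. RNA of 8 mice was pooled for each group and made into 1 library, which was run in 3 lanes, so the 9 samples are 3 libraries with technical repeats and no treatment difference has a replicate check. Errors below are the SD of lane values or the standard error (SE) of a difference between lanes, and cover sequencing only.

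Potassium channels let potassium leave the cell, which repolarises the membrane and holds it near rest. Voltage-gated (Kv) alpha subunits form the pore in groups that set spike width, firing rate and the delay to the first spike, while auxiliary subunits tune their gating and surface number. Calcium- and sodium-activated channels carry the current after a spike, inward rectifiers (Kir) open near the resting potential, and two-pore-domain (K2P) channels carry leak current. Medium spiny neurons, the main cell type of the nucleus accumbens, rest at a very negative potential held by inward rectifiers and fire late because of slowly inactivating and A-type Kv currents.

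The saline library totalled 26006605 mapped reads, the cocaine library 24219333 and the withdrawal library 19452882, with lane totals of 5546362 to 12026754. Differences were taken between lane means of log2(RPKM + 0.5), a scale on which changes of low genes are understated. A gene is said to be called, and to have risen or fallen, where 2 libraries differed by at least 1.5 times on this scale and their lane values lay apart, without overlap. The median SD between lanes of a library was 0.115 to 0.133 on the log2 scale for the channel genes and 0.114 to 0.130 for all tested genes. In bulk tissue, fewer cells of a type and less RNA per cell cannot be told apart.

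The most abundant channel transcripts, as RPKM averaged over all lanes and so per length, were the auxiliary subunit Kcnip2 at 82.9, the fast-spiking channel gene Kcnc1 at 78.3 and the beta subunit Kcnab2 at 72.1. Among the other classes the highest levels were those of Kcna6 (45.8 RPKM), the sodium-activated Kcnt1 (42.1 RPKM), the inward rectifier Kcnj4 (41.2 RPKM), the leak channel Kcnk2 (39.3 RPKM) and Kcnh3 of the ether-a-go-go group (38.8 RPKM). Kcnf1 led the electrically silent modifiers at 32.7 RPKM, Kcnd2 the A-type Kv4 genes at 17.6, and Kcnmb4 was the one BK beta subunit at the level required, with 10.4 RPKM. The 62 genes had a median of 10.2 RPKM, against 9.24 RPKM for all tested genes, with 31 at 10 RPKM or more and 20 under 5 RPKM. Summed over the 62 genes, the level was 936 ± 5.5 RPKM in the saline library, 989 ± 21 in the cocaine library and 1036 ± 4.8 in the withdrawal library.

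**Figure D1:**
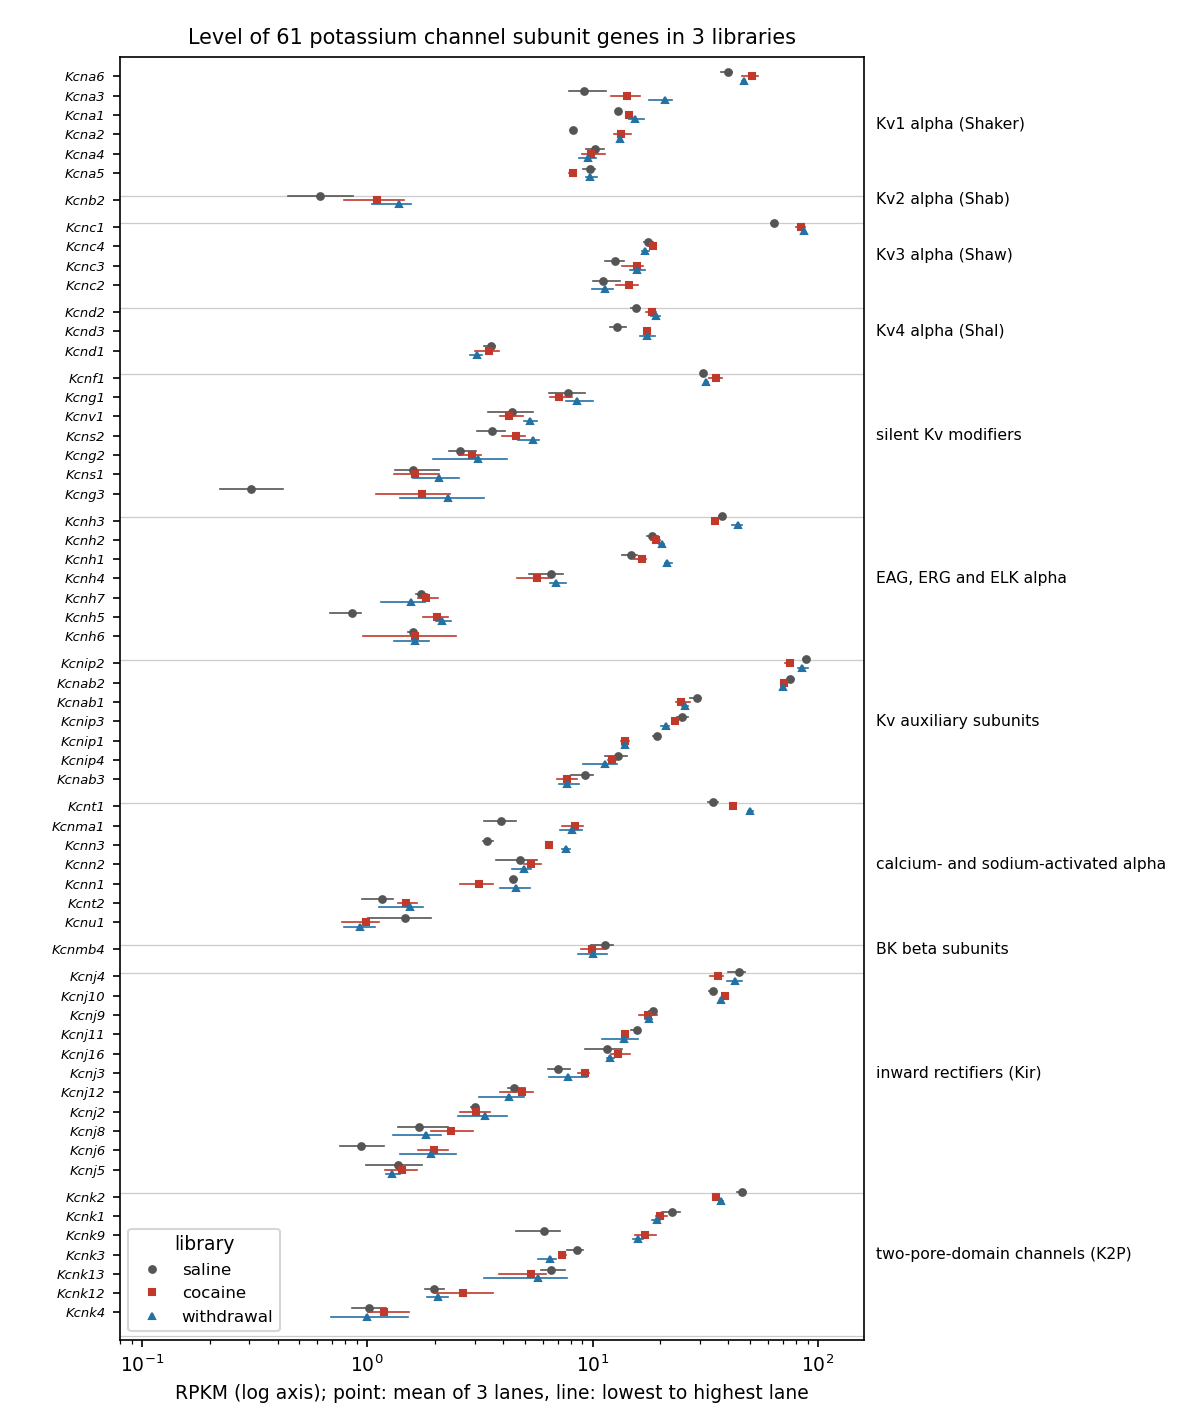
Mean level of 61 channel genes in the saline, cocaine and withdrawal libraries, in RPKM on a log axis, with lines from the lowest to the highest lane and genes grouped by channel class. The auxiliary subunit Kcnip2 (82.9 RPKM over all lanes) and Kcnc1 (78.3 RPKM) lie at the top, and the saline points of Kcng3, Kcnb2, Kcnh5 and Kcnj6 lie under 1 RPKM.

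The first comparison asked which of these genes differed 24 h after repeated cocaine. In all 9 rose, among them Kcna2, Kcna3, Kcng3, Kcnh5, Kcnma1, Kcnn3, Kcnj6 and Kcnk9, none fell, and 53 were not called. The named genes come from 6 of the 11 classes, and in none of these were all tested members called. Of them Kcng3, Kcnh5 and Kcnj6 were under 1 RPKM in saline and met the level through the other libraries, so a difference was built into their entry. Among genes at 1 RPKM or more in saline, 10.3% of the 58 channel genes and 2.5% of all genes were called higher. Over all tested genes 2.93% were called higher and 2.41% lower (5.33% either way), against 14.5% of the channel genes called higher. Those shares are 411 higher and 338 lower genes, which became 505 and 230 when centred on the median, 535 and 204 when scaled to the 75th percentile, and 476 and 98 when centred by length. Without a size limit, limma's test over the lanes (adjusted p of 0.05, Benjamini-Hochberg, comparing libraries and not treatments) called 16 channel genes higher and 6 lower, where it called 10.2% and 14.4% of all tested genes. The 6 were Kcnip1, Kcnip2, Kcnab1, Kcnk2, Kcnj4 and Kcnn1. The channel genes had a median difference of 0.08, against -0.05 for all tested genes, and ranged from -0.46 for Kcnip1 to 1.45 for Kcng3. Differences were above 0 for 36 genes and below 0 for 26. Lanes lay apart with cocaine higher for 19 channel genes and with cocaine lower for 10, where 18.3% and 23.9% of all tested genes did (42.1% either way).

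The second comparison set the withdrawal library against the same saline library, so both share every error of that library. Here 10 channel genes rose, the 9 above and Kcnb2, none fell, and 52 were not called. Over all tested genes 3.96% were called higher and 3.37% lower (7.33% either way), or 557 and 473 genes, which became 729 and 309 when centred on the median, 765 and 280 when scaled to the 75th percentile, and 595 and 175 when centred by length. By limma 20 channel genes were higher and 4 lower (Kcnip1, Kcnip3, Kcnk2 and Kcnk3), where 12% and 18.2% of all tested genes were. The median difference was 0.07 for the channel genes and -0.06 for all tested genes, with 39 channel genes above 0 and 23 below. Lanes lay apart with withdrawal higher for 22 channel genes and lower for 8, where 18.6% and 25.6% of all tested genes did (44.2% either way). Kcng3, Kcnh5, Kcnj6 and Kcnb2 were under 1 RPKM in the saline library and met the level through the other libraries, so a difference was built into their entry. Of the 58 channel genes at 1 RPKM or more in saline, 6 were called higher in each of these comparisons, beside 2.5% of all genes at that level for cocaine and 3.49% for withdrawal.

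**Figure D2:**
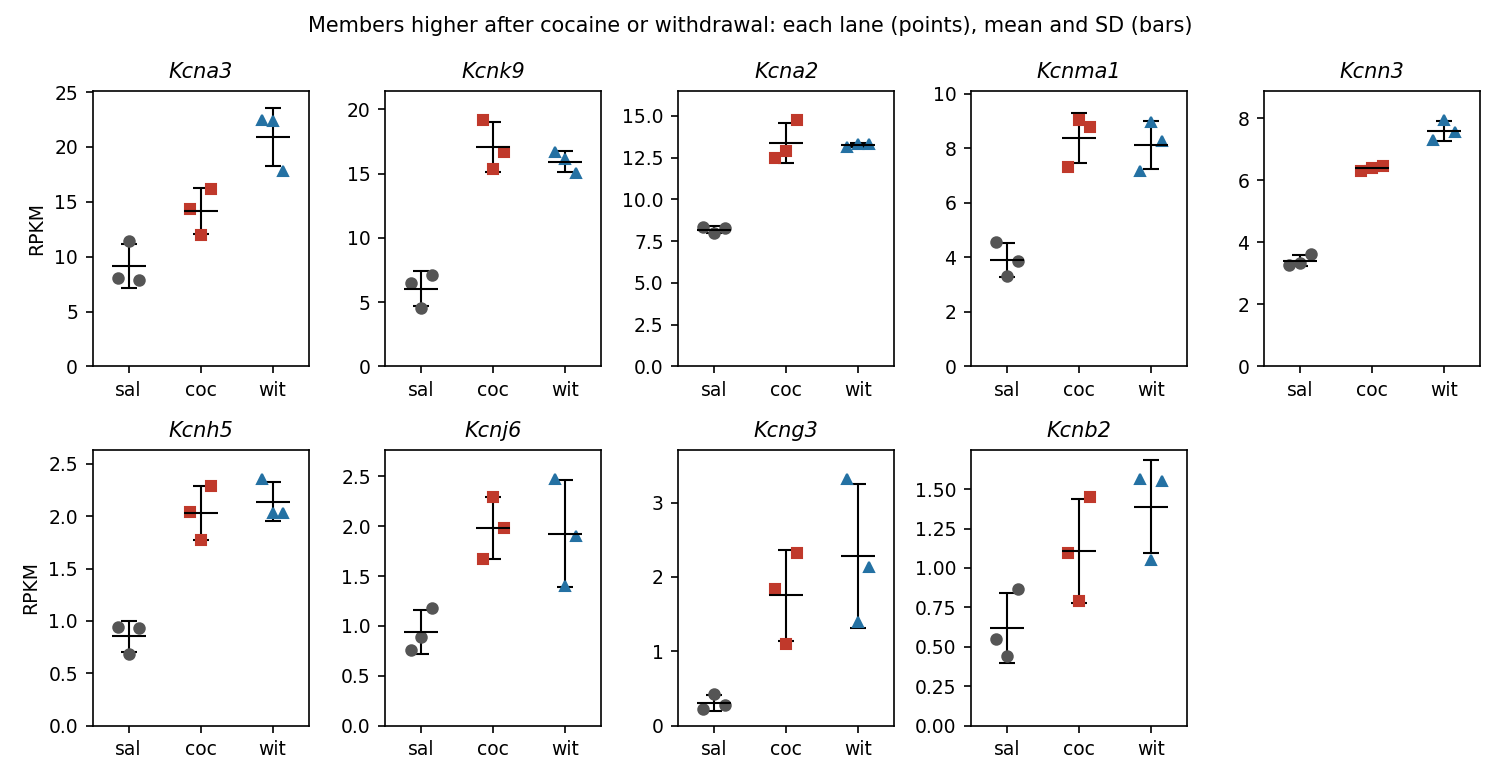
RPKM in each lane (points) of 9 channel genes called higher, with mean and SD bars over the 3 lanes of the saline (sal), cocaine (coc) and withdrawal (wit) libraries. Every saline lane lies below every cocaine and withdrawal lane, except for Kcnb2, where a cocaine lane of 0.791 RPKM lies under a saline lane of 0.865 RPKM.

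Kcnb2, which encodes an alpha subunit of the delayed rectifier, was low, with 85 reads in the saline library. Its lanes read 0.548, 0.444 and 0.865 RPKM in saline, 1.09, 0.791 and 1.45 in cocaine, and 1.56, 1.05 and 1.55 in withdrawal. Saline and cocaine lanes overlapped, whereas the withdrawal lanes lay above the saline lanes. The difference was 0.52 ± 0.234 (SE) on the log2 scale for cocaine, without a call, and 0.76 ± 0.209 for withdrawal, where Kcnb2 rose; with 1 RPKM added in place of 0.5 the latter was 0.56 and not called. Without the cocaine lane 2 the cocaine difference was 0.67, and without the saline lane 3 it was 0.67, both called.

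The electrically silent subunits form no channel alone and join other Kv subunits. Kcng3 is one of them and had the largest difference of the 62 genes against saline. At 0.306 RPKM in saline, it met the level of 1 RPKM through the other libraries, so a difference was built into its entry. Its lanes read 0.223, 0.422 and 0.274 RPKM in saline, 1.84, 1.09 and 2.32 in cocaine, and 3.31, 1.39 and 2.13 in withdrawal. The saline lanes, 25 reads in all, lay under every other lane, while the withdrawal lanes varied most. Kcng3 rose by 1.45 ± 0.264 after cocaine and by 1.73 ± 0.31 in withdrawal. The other 6 silent subunits were not called: Kcns2 came nearest, at 0.32 for cocaine and 0.54 for withdrawal, and was called in withdrawal (0.63) without the saline lane 1 or without the withdrawal lane 1, and also when centred on the median (0.60) or scaled to the 75th percentile (0.61). Kcnf1, the most abundant, differed by 0.18 and 0.04.

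Among the Shaker (Kv1) subunits, which lie along axons and dendrites and oppose repetitive firing, 2 of 6 were called. Kcna2 lanes read 8.33, 7.96 and 8.28 RPKM in saline, 12.5, 12.9 and 14.7 in cocaine, and 13.1, 13.3 and 13.3 in withdrawal. The withdrawal lanes lay within the range of the cocaine lanes, and both lay above saline. Kcna2 rose by 0.67 ± 0.073 and by 0.66 ± 0.021.

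Kcna3, also known from lymphocytes and microglia, read 8.02, 11.4 and 7.89 RPKM in saline, 12.0 to 16.2 RPKM in cocaine, and 22.5, 22.4 and 17.8 in withdrawal. The closest lanes were a saline lane of 11.4 and a cocaine lane of 12.0 RPKM. Kcna3 rose by 0.62 ± 0.205 after cocaine, a call lost without the cocaine lane 3 (0.52), the saline lane 1 (0.54) or the saline lane 3 (0.53). It rose by 1.17 ± 0.198 in withdrawal. Withdrawal exceeded cocaine by 0.55 ± 0.162, the largest such difference of the 62 genes, with lanes apart and no call; without the withdrawal lane 3 it was 0.65 and without the cocaine lane 3 it was 0.64, both called.

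Kcna2 and Kcna3 are neighbours on chromosome 3 in the gene order of the RefSeq table. The other cluster of Kv1 genes, Kcna5, Kcna1 and Kcna6 on chromosome 6, held no call. Kcna6, the most abundant Kv1 gene, was at 39.8 RPKM in saline, 50.9 in cocaine and 46.8 in withdrawal, and its differences of 0.35 and 0.23 stayed under 1.5 times.

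The Kv3 genes, whose channels support fast spiking, and the Kv4 genes, whose channels carry the A-type current, were not called. Kcnc1 lanes read 61.9 to 65.7 RPKM in saline, 79.5 to 87.5 in cocaine and 86.7 to 87.5 in withdrawal. The lanes did not overlap with saline, yet the differences of 0.38 and 0.44 were under 1.5 times. All 4 Kv3 differences were above 0 for cocaine (0.07 to 0.38), under each scaling tried, and 3 of 4 were in withdrawal, or 4 of 4 when the values were centred on the median or scaled to the 75th percentile. Kcnc2 had 0.37 for cocaine and 0.03 for withdrawal. Kcnd3 differed by 0.42 in both comparisons and Kcnd2 by 0.22 and 0.28.

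In the ether-a-go-go class, 1 of 7 genes was called. Kcnh5, a voltage-gated alpha subunit of neurons, read 0.942, 0.681 and 0.937 RPKM in saline, 2.04, 1.77 and 2.29 in cocaine, and 2.35, 2.03 and 2.03 in withdrawal. All cocaine and withdrawal lanes lay above the saline lanes and overlapped one another. Kcnh5 rose by 0.90 ± 0.128 and by 0.97 ± 0.111. Kcnh1, its closest relative, was not called, at 0.15 for cocaine and 0.52 for withdrawal, though it was called in withdrawal (0.59) after scaling to the 75th percentile.

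**Figure D3:**
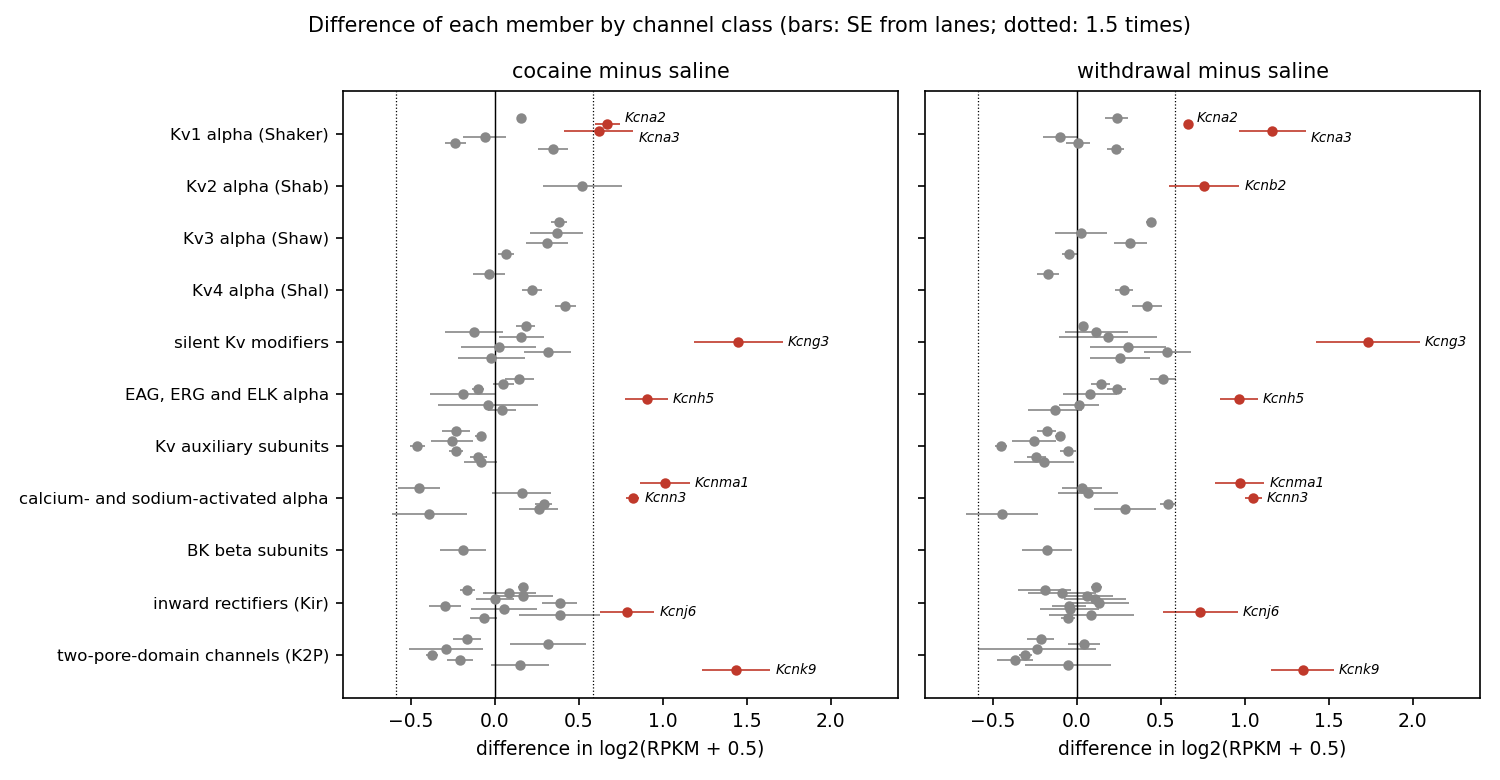
Difference of 61 channel genes from saline on the log2(RPKM + 0.5) scale, by class, for cocaine (left) and withdrawal (right); bars are SE from the lanes, dotted lines mark 1.5 times and red marks calls. All called genes lie right of the upper dotted line, which the rule for a call requires of a gene called higher. All 7 auxiliary subunits lie left of 0 as deposited, where Kcnip4 and Kcnip2 cross it under other scalings.

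The auxiliary subunits of Kv channels are the KChIP proteins, calcium sensors that bind A-type channels, and the beta subunits, which bind Shaker channels. None of the 7 was called, and as deposited all 7 lay below 0 in both comparisons, except for Kcnip4 and Kcnip2 under other scalings, with medians of -0.23 for cocaine and -0.19 for withdrawal. Over the scalings tried the medians ranged from -0.23 to -0.11 for cocaine, nearest 0 when centred by length, and from -0.19 to -0.12 for withdrawal, nearest 0 under 75th percentile scaling. The exceptions in sign were Kcnip4 for cocaine when genes were centred by length (0.02) and Kcnip2 in withdrawal when values were centred on the median (0.0040), scaled to the 75th percentile (0.02) or centred by length (0.10). Over all tested genes the medians were -0.05 and -0.06. Summed over the class the level was 259 ± 3.1 RPKM in saline, 228 ± 4.1 in cocaine and 235 ± 3.0 in withdrawal.

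Kcnip1 was the lowest of the 62 differences in both comparisons. Its lanes read 18.6, 19.2 and 19.9 RPKM in saline, 14.4, 13.4 and 13.8 in cocaine, and 13.5, 14.1 and 14.2 in withdrawal. Every saline lane lay above every other lane, and the differences of -0.46 ± 0.042 and -0.45 ± 0.035 were less than 1.5 times. Kcnip2 averaged 88.2, 75.2 and 85.1 RPKM, and its cocaine lanes lay under both its saline and its withdrawal lanes (differences of -0.23 from saline and 0.18 in withdrawal from cocaine). Kcnip3 differed by -0.10 and -0.24, and Kcnab3 by -0.25 in both.

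Among calcium- and sodium-activated channel genes, 2 of 7 were called. Kcnma1 encodes the BK channel, opened by both voltage and calcium. Its lanes read 4.56, 3.31 and 3.86 RPKM in saline, 7.32, 9.03 and 8.77 in cocaine, and 7.17, 8.95 and 8.25 in withdrawal. The cocaine and withdrawal lanes overlapped each other and not the saline lanes. Kcnma1 rose by 1.01 ± 0.148 and by 0.97 ± 0.147. Its beta subunit gene Kcnmb4, common in neurons, was not called, at -0.19 and -0.18.

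Kcnn3 encodes an SK channel, opened by calcium alone, that takes part in the afterhyperpolarisation. Its lanes read 3.28, 3.33 and 3.62 RPKM in saline, 6.32, 6.40 and 6.47 in cocaine, and 7.29, 7.94 and 7.56 in withdrawal. The libraries did not overlap, and the lanes of each were close together. Kcnn3 rose by 0.82 ± 0.040 and by 1.05 ± 0.051, with 0.23 ± 0.035 between withdrawal and cocaine. The SK gene Kcnn1 differed from this: its mean levels were 4.44, 3.14 and 4.59 RPKM, with the cocaine lanes under all others (-0.45 ± 0.127 for cocaine and 0.03 for withdrawal) and no call.

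Kcnt1, which encodes a sodium-activated channel, read 32.5 to 36.0 RPKM in saline, 40.6 to 42.8 in cocaine and 49.1 to 51.4 in withdrawal. No libraries overlapped, at 0.29 for cocaine and 0.55 for withdrawal, both under 1.5 times as deposited. When values were centred on the median or scaled to the 75th percentile, the withdrawal difference of Kcnt1 was 0.60 or 0.62 and was called. Kcnu1, a relative of the BK gene best known from sperm, averaged 1.47, 0.985 and 0.925 RPKM. Its withdrawal difference of -0.44 became -0.62 and was called without the saline lane 1.

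Of 11 inward rectifier genes 1 was called. Kcnj6 encodes a subunit of the channel opened by G proteins downstream of inhibitory receptors. Its lanes read 0.754, 0.889 and 1.18 RPKM in saline, 1.67, 2.29 and 1.99 in cocaine, and 2.47, 1.40 and 1.91 in withdrawal. All cocaine and withdrawal lanes lay above saline, and the withdrawal lanes were widely spread. Kcnj6 rose by 0.79 ± 0.162 and by 0.74 ± 0.224. The withdrawal call was lost without the withdrawal lane 1 (0.58) and with 1 RPKM added (0.58).

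The partner subunits of Kcnj6 were not called: Kcnj3 differed by 0.39 and 0.14, and Kcnj9 averaged 18.0 RPKM over all lanes. Kcnj4, which encodes a classical inward rectifier of forebrain neurons, averaged 44.4, 36.1 and 43.0 RPKM, with cocaine lanes below all saline lanes (-0.30 ± 0.098) and no call. Kcnj10, the rectifier of astrocytes and oligodendrocytes, averaged 36.8 RPKM over all lanes and was not called. Kcnj8, found in mural cells of vessels, had 0.39 for cocaine and 0.09 for withdrawal.

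Of 7 K2P genes 1 was called. Kcnk9 encodes the acid-sensitive leak channel TASK-3. Its lanes read 6.47, 4.55 and 7.15 RPKM in saline, 19.2, 15.3 and 16.7 in cocaine, and 16.7, 16.1 and 15.04 in withdrawal. Saline was far below both other libraries, which overlapped. Kcnk9 rose by 1.44 ± 0.203 and by 1.35 ± 0.186, the largest differences among the channel genes above 1 RPKM in saline. The length behind its values was 1209 bp, whereas the nearest transcript in the GENCODE M21 annotation is 12300 bp long. Some other called genes also had lengths unlike that of their nearest transcript, as given with the gene lengths below.

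Kcnk3, the gene of the related channel TASK-1, averaged 8.53, 7.32 and 6.5 RPKM, with differences of -0.20 and -0.37 and no call. Kcnk2, the stretch- and lipid-sensitive TREK-1 and the most abundant K2P gene, read 43.9 to 47.8 RPKM in saline, 35.0 to 35.5 in cocaine and 36.3 to 38.0 in withdrawal. Its saline lanes lay above all others, at -0.37 ± 0.036 and -0.30 ± 0.041, which is less than 1.5 times. Kcnk13 differed by -0.29 and -0.24, with overlapping lanes.

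The third comparison set withdrawal against cocaine directly. No channel gene was called higher and none lower, where 0.47% and 0.548% of all tested genes were (1.02% either way). By limma's test over the lanes, 1 gene, Kcnh3 (0.34), passed an adjusted p of 0.05 (Benjamini-Hochberg). In each direction 0.185% of all tested genes passed. Without adjustment 12 channel genes had a limma p under 0.05, where 12.6% of all tested genes did. The median difference was 0.01 for the channel genes and -0.01 for all tested genes, from -0.34 for Kcnc2 to 0.55 for Kcna3. Lanes lay apart with withdrawal higher for 13 genes and lower for 5, where 8.66% and 9.42% of all tested genes did (18.1% either way). Beside Kcna3, high values were 0.48 ± 0.168 for Kcnn1, 0.37 for Kcnh1 and 0.34 for Kcnh3, and the lowest after Kcnc2 were -0.30 for Kcnj8, -0.27 for Kcnk12, -0.25 for Kcnj3, -0.20 for Kcnk4 and -0.17 for Kcnh7.

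Proximal promoters are shown for Kcng3, Kcna3 and Kcnma1, called genes from separate classes. They are the 250 bases before a RefSeq start on GRCm38.p6, written along the gene's strand. Capitals mark GC boxes (GGGCGG or CCGCCC, a known Sp-family site) and the short core of the cyclic AMP response element (TGACG or CGTCA).
Kcng3, chr17:83631896-83632145, minus strand: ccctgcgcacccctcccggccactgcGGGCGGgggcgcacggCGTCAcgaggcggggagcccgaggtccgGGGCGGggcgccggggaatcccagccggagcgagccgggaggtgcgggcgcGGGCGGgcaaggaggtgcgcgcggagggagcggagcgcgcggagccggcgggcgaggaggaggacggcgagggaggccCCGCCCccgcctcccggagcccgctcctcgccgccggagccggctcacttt
Kcna3, chr3:107035912-107036161, plus strand: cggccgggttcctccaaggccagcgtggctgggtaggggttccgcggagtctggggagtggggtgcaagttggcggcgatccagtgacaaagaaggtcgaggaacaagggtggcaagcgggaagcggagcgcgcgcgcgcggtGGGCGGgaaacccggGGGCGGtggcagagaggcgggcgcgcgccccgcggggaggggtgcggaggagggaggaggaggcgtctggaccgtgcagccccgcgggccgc
Kcnma1, chr14:24004206-24004455, minus strand: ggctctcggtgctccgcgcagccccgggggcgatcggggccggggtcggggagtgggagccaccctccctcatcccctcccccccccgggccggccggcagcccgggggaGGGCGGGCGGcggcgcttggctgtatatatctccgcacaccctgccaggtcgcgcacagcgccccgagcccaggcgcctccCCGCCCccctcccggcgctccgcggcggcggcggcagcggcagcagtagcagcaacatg

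All 3 are rich in G and C (82.4%, 74.4% and 79.2%). The median was 52.4% for all mouse promoters in the table and 60.0% for the 65 promoters of the 45 channel genes found there. The 3 shown are the richest in G and C among the promoters of called genes, the others having 58.8% to 65.6%. They also hold the most GC boxes, so they do not stand for the called genes as a set. The table held 8 promoters of 7 called genes, with a median of 65.6%. A GC box, on either strand, stood in 5 of these 8, in 31 of 65 channel gene promoters (47.7%) and in 32.7% of 32851 promoters of this length. The short core CGTCA or TGACG stood in 2 of the 8 (those of Kcng3 and Kcnh5), in 10 of the 65 (15.4%) and in 17.8% of all. The full site TGACGTCA was in none of the 65 and in 1.55% of all, and the AP-1 motif TGANTCA in 3 of the 65 and in 6.75% of all. The full site contains both forms of the short core. These matches describe letters only.

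Genes of other products that act with these channels were counted from a list of 16, of which 13 were tested. For cocaine and for withdrawal 1 of 13 was called higher and none lower, with medians of 0.08 and 0.31. Of all tested genes 2.93% and 3.96% were called higher and 2.41% and 3.37% lower, with medians of -0.05 and -0.06. The called gene was Lrrc26, a gamma subunit that shifts BK channel opening. Its lanes read 1.15, 0.919 and 1.61 RPKM in saline, 2.98, 3.77 and 1.68 in cocaine, and 3.46, 2.39 and 1.92 in withdrawal. The lowest cocaine lane was just above the highest saline lane, and Lrrc26 rose by 0.91 ± 0.331 and by 0.83 ± 0.266. The A-type partner genes Dpp6 and Dpp10 were not called (-0.06 and 0.01 for cocaine, -0.10 and -0.09 for withdrawal). Outside the rule, the KCNQ gene Kcnq3 rose from 4.19 to 14.2 and 17.9 RPKM (1.65 and 1.98).

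Differences from saline went with gene length over all tested genes (Spearman correlation across genes of 0.463 for cocaine and 0.422 for withdrawal), and less so over the channel genes (0.173 and 0.231). Across genes these points share 3 libraries and are not replicates. Genes rising over the whole table were 4348 bp long at the median for cocaine and 4572 bp for withdrawal, and those falling 1270 and 1519 bp, against 3531 bp for all tested genes. The 10 called channel genes had a median of 4060.5 bp (1209 to 7810 bp) and the other 52 of 4400.5 bp (1747 to 15226 bp). After centring within 20 length bins the same 9 and 10 genes were called, for example Kcng3 at 1.53 and 1.81. Kcnk9, at 1.72 and 1.66, was centred by its length of 1209 bp and not by the 12300 bp of its nearest annotated transcript. Lengths also differed from the nearest transcript for Kcnj6 (7204 against 3627 bp), Kcnma1 (7617 against 12094 bp) and Kcnb2 (5309 against 3963 bp). Those of Kcng3 (3356 bp for both) and Kcnh5 (4061 against 4058 bp) were close. The part of gene length in the calls was not tested.

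**Figure D4:**
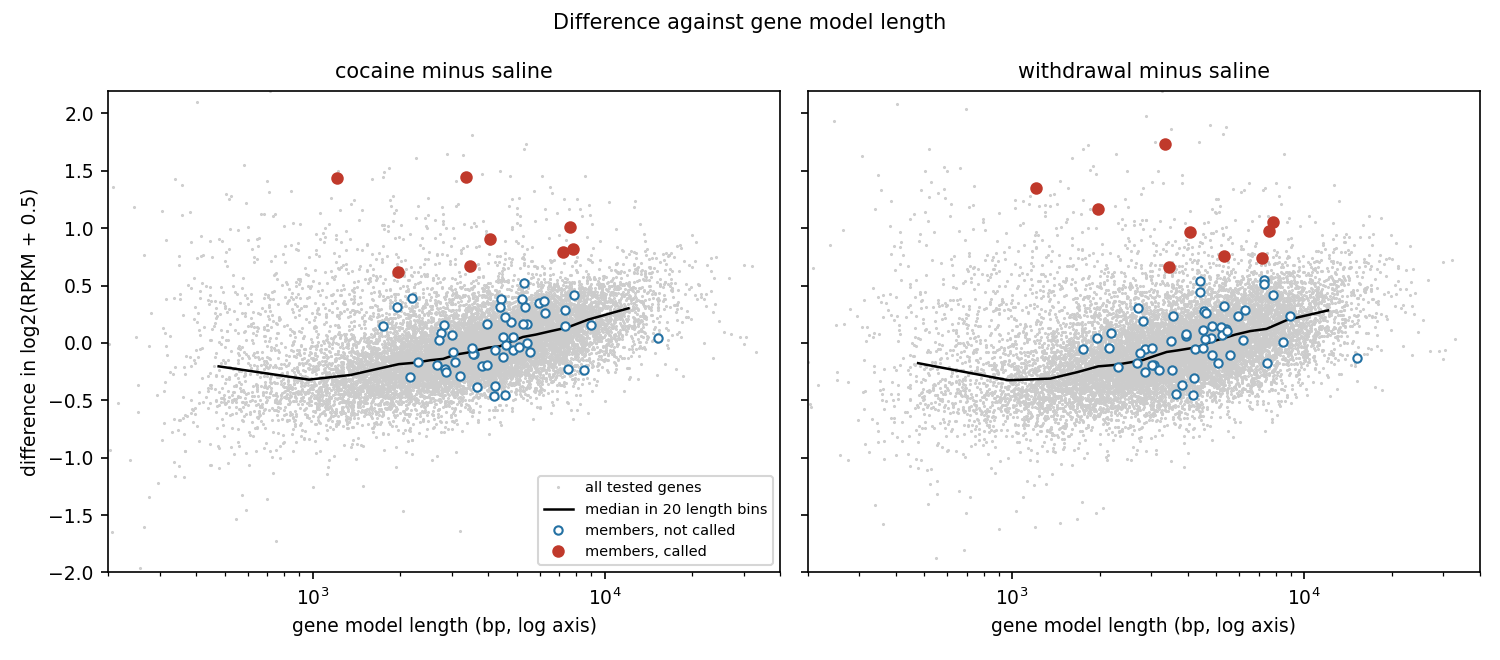
Difference from saline on the log2(RPKM + 0.5) scale against gene model length in bp (log axis), for all tested genes (grey) and the channel genes (coloured), with genes beyond the axis limits left out. The median over all tested genes climbs with length, to 0.30 for cocaine and 0.28 for withdrawal in the longest bin. The called channel genes drawn, from 1209 to 7810 bp, lie above it by the rule for a call, which needs at least 0.585.

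Marker lists of cell types also differed between these libraries. Summed over 10 medium spiny neuron markers, lanes covered 1967 to 2061 RPKM in saline, 1432 to 1518 in cocaine and 1728 to 1740 in withdrawal. Cortical projection neuron markers covered 32.3 to 35.4, 20.7 to 24.5 and 19.3 to 20.9 RPKM, oligodendrocyte precursor markers 43.5 to 44.9, 61.7 to 68.5 and 63.2 to 66.9, and endothelial and mural markers 96.3 to 101, 113 to 123 and 127 to 140. Astrocyte markers covered 596 to 617, 665 to 672 and 645 to 656 RPKM, and microglia markers 147 to 165, 133 to 145 and 128 to 138. Interneuron markers covered 352 to 361, 320 to 335 and 312 to 341 RPKM, and oligodendrocyte markers 1942 to 1964, 1839 to 1872 and 1760 to 1779. Choroid plexus and ependyma markers covered 20.3 to 25.7, 23.8 to 29.4 and 16.2 to 22.6. Abundant genes weigh most in such sums, as Penk (1018 RPKM in saline) and Ppp1r1b (655 RPKM) did in the first. Median differences of tested markers for cocaine and withdrawal were -0.26 and 0.04 for medium spiny neurons, and 0.04 and 0.19 for interneurons. They were 0.01 and -0.08 for astrocytes, and -0.13 and -0.36 for choroid plexus and ependyma. In the other lists the medians and the sums had the same direction. Of the 10 medium spiny neuron markers, Ppp1r1b and Tac1 fell for cocaine (-0.75 each), and Pde10a rose in withdrawal (0.69) after 0.35 without a call for cocaine. The cortical marker Slc17a7 fell in both comparisons (-1.64 and -2.08), and Fezf2 fell in withdrawal (-0.74). Tnr, on the oligodendrocyte precursor list, rose in both (1.73 and 1.88), as did the interneuron marker Nos1 (0.61 and 0.80), while Slc5a7 rose in withdrawal alone (0.66). Of 10 endothelial and mural markers, Flt1 and Tek rose in both, and Cldn5 and Pecam1 in withdrawal. For cocaine Ttr rose (1.5) and Ccdc153 fell (-0.60) on the choroid plexus and ependyma list, and no tested astrocyte, oligodendrocyte or microglia marker was called. No marker was at 0 in all lanes, those of medium spiny neurons included. The part of these shifts in the channel gene differences was not tested.

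Exons of 23 of the 62 genes overlap another gene in the GENCODE M21 annotation, 4 of them a protein-coding one (Kcnh3, Kcnh7, Kcnip4 and Kcnk4). Among the called genes, Kcnj6 and Kcnma1 overlap a non-coding antisense gene. Whether the reads were counted by strand is not given in the sources used here, so reads of these genes and of their antisense partners cannot be told apart.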

How the data were processed

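Poly(A) RNA of the nucleus accumbens, pooled from 8 mice per group, was copied with random primers, and 1 library per group was run in 3 lanes of 37 cycles from each end, per the labels' protocols. The deposited values are RPKM per lane and per library, made by the authors, with lane totals per the file headers. The submitters' processing notes name Bowtie 0.12.7 and mm9. The read counter and gene annotation are not given in the sources used here. Gene lengths were recovered as those at which every lane gave whole multiples of 1/37 of a read; since reads were not whole, no count test was run.

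Lane means of log2(RPKM + 0.5) were compared for genes at a mean of 1 RPKM or more, and a call needed 1.5 times and lanes apart. With 1 library per group there is no p-value about treatment. The alternative limma 3.58.1 (R 4.3.3, trend, robust, adjusted p 0.05 over all genes) compares lanes of these libraries. Other alternatives were the pseudocount (0.1, 1), the filter (5 RPKM, none), 2 times, median centring, 75th percentile scaling, 20 length bins, the library composites, and leaving out each lane. The procedure was tested on simulated data. Named genes were all called channel genes, the 6 highest and 6 lowest differences per comparison, the top gene per class, genes next to 1 RPKM, and called KCNQ and partner genes; others named were chosen after their values were seen. Some genes that this rule names are not reported here, and the plots leave them out. The members and lists were chosen with earlier results of these data known.

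Promoters are from RefSeq (GRCm38.p6), matched by symbol. Since the files use mm9, no other coordinates are given.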

Additional observations from a re-analysis of the deposited data

How the results depend on the processing

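For cocaine against saline, the 9 channel genes called higher became 3 at a size limit of 2 times. By limma 16 were higher, as were 16 by limma with the lane number as a replicate block. Those called lower went from 0 to 6 by limma and 5 with the block. With the block, limma called 1318 of all 14051 tested genes higher and 1971 lower. The median of 0.08 was 0.15 under 75th percentile scaling. Leaving out each lane gave 8 to 10 genes higher and medians of 0.041 to 0.157. For withdrawal against saline, the 10 called higher became 6 of 42 genes at 5 RPKM or more and 5 at 2 times. They were 20 by limma and 19 with the block, 12 when centred on the median and 13 under 75th percentile scaling. Those called lower went from 0 to 4 by limma and 5 with the block. Of all 14051 tested genes, 1579 were higher and 2542 lower by limma with the block. The median of 0.07 was 0.13 when centred on the median and 0.14 under 75th percentile scaling. Leaving out each lane gave 10 to 11 higher, 0 to 1 lower and medians of 0.040 to 0.105. For withdrawal against cocaine, without a level filter 1 gene was called higher and 1 lower, limma called 1 higher (Kcnh3, adjusted p 0.043, and none with the replicate block, where its adjusted p was 0.098), and leaving out each lane gave 0 to 1 higher and medians of -0.012 to 0.043. The lower counts at 2 times and at 5 RPKM follow from the stricter limit and the fewer genes, and the cause of the others was not tested. Counts over all tested genes at 2 times, at 5 RPKM, without a filter and without a lane are not given here. The channel gene counts at those settings therefore have no background beside them. Lanes with the same number deviated together with correlations of -0.05 to 0.08, so the numbers pair nothing. With the block the withdrawal call of Lrrc26 was also lost by limma. Kcnb2 and Kcng3 rest on few reads (85 and 25 in saline).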

Other observations

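Among the 22 channel genes under 1 RPKM on average, which lie outside the rule for named genes and were chosen after their values were seen, Kcnk10, the gene of a lipid-sensitive K2P channel, averaged 0.529 RPKM in saline, 1.28 in cocaine and 0.761 in withdrawal (0.81 ± 0.278 for cocaine, lanes apart). Kcnk7, a K2P gene not known to form a channel alone, was listed at 0 in all saline lanes and read 1.26, 0.527 and 0.169 RPKM in withdrawal. The genes called between withdrawal and cocaine without a level filter were the inward rectifier Kcnj15 (0.181 RPKM in cocaine and 0.606 in withdrawal, 0.67) and the auxiliary subunit Kcne3 (0.446 and 0.059 RPKM, -0.75). They rest on 27 and 68 reads for Kcnj15, and on 18 and 2 reads for Kcne3.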
